A study of Mus musculus with 4 samples.

Results

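The genes described here are the D-type cyclins Ccnd1, Ccnd2 and Ccnd3, their kinase partner Cdk4, and 6 genes for inhibitors of cyclin-dependent kinases (CDKs): Cdkn1b, Cdkn1c, Cdkn2a, Cdkn2b, Cdkn2c and Cdkn2d. They were taken by name, and all 10 were among the 14323 genes of the expression table. The filter for tests, a mean of at least 1 normalized count over the 4 libraries, was passed by 8 of them and by 11370 genes in all. Cdkn1c and Cdkn2a did not pass it. Cdkn2b was just inside with a mean of 1.09, and Cdkn2a was just outside with a mean of 0.911.

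D-type cyclins are made when growth factors and cytokines reach a cell, and they bind CDK4 or CDK6. The active kinases phosphorylate the retinoblastoma protein, which frees E2F transcription factors to switch on the genes of DNA replication. INK4 inhibitors (Cdkn2a to Cdkn2d) bind CDK4 and CDK6 directly, whereas CIP/KIP inhibitors (Cdkn1a, Cdkn1b and Cdkn1c) act mainly on cyclin-CDK2 complexes. In blood formation, Cdkn1b and Cdkn1c are known for holding stem cells out of the cycle, and loss of all D-type cyclins in mouse embryos is known to deplete blood stem and progenitor cells.

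RNA-seq was done on colonies grown from MPP2 cells and from ST-HSCs of C57BL/6 mice. MPP2 cells are multipotent progenitors known for a bias to megakaryocytes and red cells, and ST-HSCs are short-term blood stem cells. The 4 groups were MPP2 with 4OHT, MPP2 with ethanol, ST-HSC with 4OHT and ST-HSC with ethanol, with 1 library each. In the 4OHT groups, 4-hydroxytamoxifen at 0.05 µM was used to turn on MLL-ENL, a leukaemia fusion of MLL with the elongation factor ENL. The ethanol groups received the same volume of solvent and are labelled as controls. All groups shared the culture, in which 100 cells were put in 1 ml of 1% methylcellulose with SCF at 25 ng/ml and IL-6, IL-3 and GM-CSF at 10 ng/ml each. Colonies grew for 5 to 7 days. The labels name neither the promoter or Cre behind the inducible allele nor the age and number of the mice. No group combined 4OHT with cells lacking the inducible allele, so effects of the drug and of MLL-ENL cannot be told apart. The table has no row for the fusion transcript, and the treatment labels were taken as given.

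The libraries held 12907412 to 14317891 reads, and 1 read was worth 0.0695 to 0.0802 normalized counts. Intervals given with ratios are exact 95% binomial intervals on the reads of both libraries. They cover counting error only and not the spread between cultures. In bulk RNA, fewer cells of a type and less RNA per cell cannot be told apart. Neutrophil markers were the most abundant of the marker lists. Slamf1, which encodes the surface protein CD150 that defines MPP2 cells, had no reads in either ST-HSC library.

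Among the tested members, Ccnd1 had the largest excess under 4OHT in both kinds of colony, and Cdkn2b was furthest below ethanol, in MPP2 colonies. A gene was called when log2 values taken after adding 0.5 differed by at least 2-fold. In MPP2 colonies 2 of the 8 tested members were called, Ccnd1 higher and Cdkn2b lower. Of all tested genes 3.02% were called there, 1.32% as higher and 1.7% as lower. Cdkn2b was above 1 normalized count only in MPP2 ethanol, at 3.03. Its call as lower was thus favoured by the filter, and nothing is read from it against these shares. In ST-HSC colonies Ccnd1 alone was called, against 2.65% of all tested genes, or 2.1% called as higher. The median log2 difference of the 8 was -0.13 in MPP2 and -0.10 in ST-HSC colonies, where the medians of all tested genes lay within 0.01 of 0. Between the cell types, Cdkn2b alone was called 2-fold higher in MPP2, under 4OHT and in ethanol. With 2 and 3 reads in the ST-HSC libraries, it entered the tested set only through the MPP2 libraries, so nothing is read from the shares of all genes. Genes called in either direction made up 7.1% of those tested under 4OHT and 7.13% in ethanol. Genes called as higher in MPP2 made up 5.39% under 4OHT, 6.27% in ethanol and 3.51% in both.

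**Figure D1:**
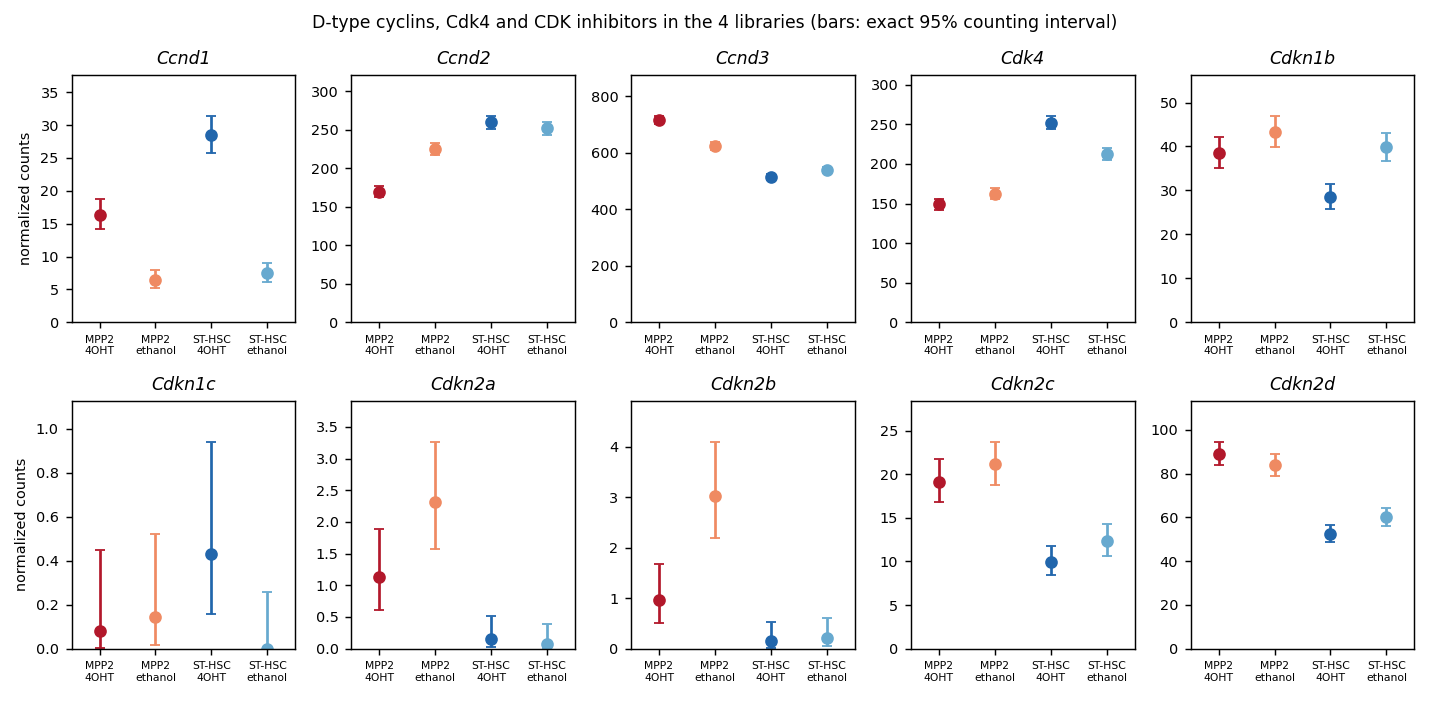
Normalized counts of the 10 genes (vertical axes, each from 0) in the MPP2 4OHT, MPP2 ethanol, ST-HSC 4OHT and ST-HSC ethanol libraries, with exact 95% counting intervals as bars. Ccnd1 is high in both 4OHT libraries, Cdk4 and Ccnd2 are lowest in MPP2 under 4OHT, and Cdkn2a to Cdkn2d are higher in both MPP2 libraries than in both ST-HSC libraries.

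Ccnd1 encodes cyclin D1, known in mouse macrophages as a cyclin induced by the growth factor CSF1. The gene lies at chr7:144929931-144939925 on the minus strand of GRCm38. It had 16.3 normalized counts (203 reads) in MPP2 4OHT and 6.42 (89 reads) in MPP2 ethanol. In ST-HSC colonies it had 28.5 (396 reads) under 4OHT and 7.44 (107 reads) in ethanol. Both 4OHT libraries stood above both ethanol libraries, and the ethanol libraries did not differ beyond counting error, with MPP2 at 0.863 times ST-HSC (0.644 to 1.15). Under 4OHT, Ccnd1 stood at 2.54 times the ethanol level in MPP2 (1.97 to 3.29) and at 3.82 times in ST-HSC (3.08 to 4.78). A 2-fold excess in both cell types was seen for 0.756% of tested genes. Among 4OHT libraries, MPP2 had 0.572 times the Ccnd1 of ST-HSC (0.481 to 0.679).

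With 1 library a group, the only fit across genes was an additive limma model of treatment and cell type. Its error is the disagreement of the 2 pairs, with 1 residual degree of freedom, moderated over all tested genes. It is not a spread between replicate cultures, and p-values and intervals of a gene lean on the errors of the other genes. In this fit the shared 4OHT difference of Ccnd1 was 1.57 on the log2 scale (95% interval 1.10 to 2.04, unadjusted p = 0.000372). Its adjusted p of 0.0779 by limma with Benjamini-Hochberg correction missed 0.05. Over 9 other settings the limma or edgeR adjusted p ran between 0.00017 and 0.201, and 4 of the 9 passed.

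Ccnd2 encodes cyclin D2, which cytokine receptors signalling through STAT5 are known to induce. It lies at chr6:127125162-127152193 on the minus strand. It had 169.5 normalized counts in MPP2 4OHT and 225 in MPP2 ethanol. The ST-HSC libraries had 259.6 under 4OHT and 252 in ethanol. The MPP2 4OHT library stood lowest, at 0.754 times MPP2 ethanol (0.713 to 0.797). The ST-HSC libraries did not differ beyond counting error, with a ratio of 1.03 (0.984 to 1.08). The shared limma differences of Ccnd2 were -0.18 for 4OHT (adjusted p = 0.678) and -0.39 for MPP2 minus ST-HSC (adjusted p = 0.151, with 2 of 9 other settings past 0.05).

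Ccnd3 encodes cyclin D3, known for its part in the expansion of lymphoid, granulocytic and red cell precursors. The gene lies at chr17:47505051-47599691 on the plus strand. It had 715 normalized counts in MPP2 4OHT and 623 in MPP2 ethanol, a ratio of 1.15 (1.12 to 1.18). In ST-HSC colonies it had 513 under 4OHT and 538 in ethanol, a ratio of 0.953 (0.923 to 0.985). Both MPP2 libraries were above both ST-HSC libraries, and each of the 4 stood apart from the next beyond counting error. The shared limma differences were 0.07 for 4OHT (adjusted p = 0.873) and 0.34 for MPP2 minus ST-HSC (adjusted p = 0.145, with 2 of 9 other settings past 0.05). Of the 31-base stretches of Ccnd3 exons, 4.32% also occur in other annotated transcripts, among them a Ccnd3 pseudogene, so a small part of its reads could be shared.

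**Figure D2:**
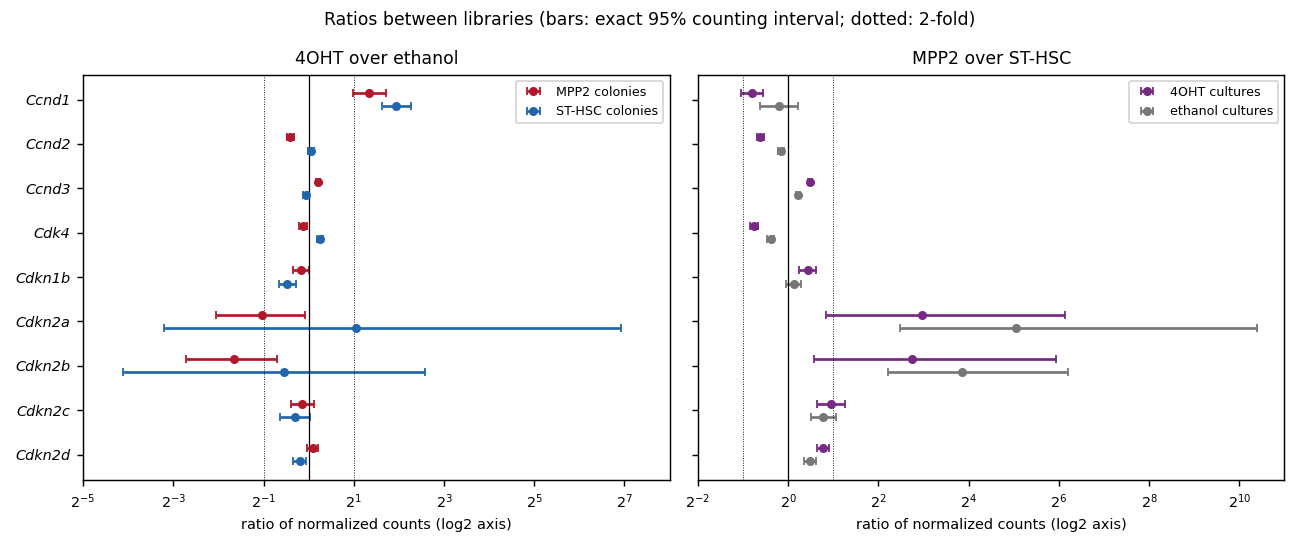
Ratios of normalized counts on a log2 axis for 9 members, with exact 95% counting intervals, for 4OHT over ethanol (left) and MPP2 over ST-HSC (right). Cdkn1c is left out because 1 library had 0 reads. Ccnd1 sits right of 2-fold in both kinds of colony, and Cdkn2a to Cdkn2d sit right of 1 in both treatments for MPP2 over ST-HSC.

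Divided by exon length, Ccnd3 was the most abundant D-type cyclin in every library. Of the summed level per kb of exon, it made up 79.1% in MPP2 4OHT, 73.7% in MPP2 ethanol, 63.5% in ST-HSC 4OHT and 68.4% in ST-HSC ethanol. The share of Ccnd2 was 17.5%, 24.8%, 30.0% and 29.8% in the same libraries. Ccnd1 held 3.36% and 6.56% in the MPP2 and ST-HSC 4OHT libraries, against 1.42% and 1.76% in the ethanol libraries. The sum of the 3 cyclins per kb varied little, at 103 in MPP2 4OHT, 96.2 in MPP2 ethanol, 92.1 in ST-HSC 4OHT and 89.7 in ST-HSC ethanol. Ccnd1 was a minor component of that sum in every library. The ratio of Ccnd3 to Ccnd2 per kb was 4.52 in MPP2 4OHT, 2.97 in MPP2 ethanol, 2.12 in ST-HSC 4OHT and 2.29 in ST-HSC ethanol. With the longest transcript as length, these ratios were 6.92, 4.54, 3.24 and 3.51, in the same order of libraries.

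Cdk4 encodes the kinase that D-type cyclins activate. It lies at chr10:127063534-127067920 on the plus strand. It is a known target of the transcription factor MYC, which binds the E-box CACGTG. Sequences upstream of a start were listed in RefSeq tables for 7 of the 10 members, on GRCm38.p6. The stretch before the Cdk4 start, chr10:127063285-127063533 on the plus strand, is shown because it holds 4 copies of CACGTG, in capitals. Their first bases are at -172, -118, -98 and -11 from the RefSeq start. CACGTG, which reads the same on both strands, occurs in 6.00% of 32851 promoters cut to the same 249 bases, and 0.0213% hold at least 4 copies.
Cdk4: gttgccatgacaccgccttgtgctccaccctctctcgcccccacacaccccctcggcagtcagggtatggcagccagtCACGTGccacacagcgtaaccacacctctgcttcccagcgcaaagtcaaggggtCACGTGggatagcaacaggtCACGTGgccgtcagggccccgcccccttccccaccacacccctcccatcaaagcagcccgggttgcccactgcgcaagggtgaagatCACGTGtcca

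Cdk4 had 149 normalized counts in MPP2 4OHT and 162 in MPP2 ethanol. Levels in ST-HSC were 252 under 4OHT and 212 in ethanol. Both MPP2 libraries were below both ST-HSC libraries, and every library stood apart from the next beyond counting error. The 4OHT over ethanol ratio was 0.918 in MPP2 (0.863 to 0.977) and 1.19 in ST-HSC (1.13 to 1.25). MPP2 had 0.590 times the Cdk4 of ST-HSC under 4OHT and 0.764 times in ethanol. The shared limma difference, MPP2 minus ST-HSC, was -0.57 (adjusted p = 0.0644), and 4 of 9 other settings passed 0.05. Myc had 106 normalized counts in MPP2 4OHT and 111 in MPP2 ethanol, against 174 in ST-HSC 4OHT and 168 in ST-HSC ethanol. Its limma difference was -0.66 (adjusted p = 0.0383), and the part of Myc in the level of Cdk4 was not tested.

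Cdk6, the other D-cyclin kinase, had 103 normalized counts in both MPP2 libraries, 143 in ST-HSC 4OHT and 138 in ST-HSC ethanol. Its shared limma difference between the cell types was -0.44 (adjusted p = 0.0767). Per kb of exon, Cdk4 made up 86.1% to 88.4% of the sum of both kinases. That sum was 53.2 in MPP2 4OHT and 57.3 in MPP2 ethanol, against 87.9 in ST-HSC 4OHT and 75.2 in ST-HSC ethanol. Both kinases had lower values in both MPP2 libraries, and neither passed the limma threshold.

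Cdkn1b encodes p27, a CIP/KIP inhibitor that builds up in resting cells. It lies at chr6:134920401-134925513 on the plus strand. It had 38.5 normalized counts in MPP2 4OHT and 43.4 in MPP2 ethanol. In ST-HSC colonies it had 28.6 under 4OHT and 39.8 in ethanol. The ST-HSC 4OHT library stood lowest, and among the other 3 neighbours in order did not differ beyond counting error. The 4OHT over ethanol ratio was 0.888 in MPP2 (0.786 to 1.00) and 0.719 in ST-HSC (0.631 to 0.819). The shared limma difference for 4OHT was -0.32 (adjusted p = 0.408), and that for MPP2 minus ST-HSC was 0.27 (adjusted p = 0.224).

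Cdkn1c encodes p57, an imprinted CIP/KIP inhibitor known to be needed for the quiescence of mouse blood stem cells. It lies at chr7:143458339-143461050 on the minus strand. It had 1 read in MPP2 4OHT, 2 in MPP2 ethanol, 6 in ST-HSC 4OHT and 0 in ST-HSC ethanol. The 0 allows up to 3 reads, or 0.209 normalized counts, and ST-HSC 4OHT had 0.431. The exact counting interval of the ratio of these 2 libraries, 6 reads against 0, starts at 1.22. For 4OHT in MPP2, and between the cell types in either treatment, no difference in Cdkn1c was detectable at this depth.

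The third CIP/KIP gene, Cdkn1a for p21, is not a member but dominated its family. Per kb of exon it made up 83.8% and 89.9% of the CIP/KIP sum in the MPP2 and ST-HSC 4OHT libraries, against 74.2% and 74.3% in the ethanol libraries. Cdkn1b held 16.1% and 9.78% in the 4OHT libraries, against 25.7% in each ethanol library. The share of Cdkn1b was thus smaller under 4OHT in both cell types. The CIP/KIP sum per kb was 52.5 in MPP2 4OHT, 37.1 in MPP2 ethanol, 64.2 in ST-HSC 4OHT and 34.1 in ST-HSC ethanol. The shared limma difference of Cdkn1a for 4OHT was 0.93 (adjusted p = 0.126).

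Cdkn2a and Cdkn2b are neighbours on chromosome 4 that limit the growth of stressed and ageing cells. Cdkn2a makes 2 proteins from separate first exons, p16Ink4a, which binds CDK4 and CDK6, and p19Arf, which stabilises p53. Reads were counted per gene, so the 2 products could not be told apart. Cdkn2a lies at chr4:89274471-89294653 and Cdkn2b, which encodes p15, at chr4:89306299-89311039, both on the minus strand. Their starts are shown because the 2 genes had like levels in the 4 libraries while both Cdkn2a products are read as 1 gene. Each is the RefSeq sequence before the start on GRCm38.p6, minus strand. Capitals mark an E2F site. The sites searched on both strands were TTTCCCGC, TTTGGCGC, TTTCGCGC and TTTGCCGC.
Cdkn2a upstream start, of p19Arf, chr4:89294654-89294869: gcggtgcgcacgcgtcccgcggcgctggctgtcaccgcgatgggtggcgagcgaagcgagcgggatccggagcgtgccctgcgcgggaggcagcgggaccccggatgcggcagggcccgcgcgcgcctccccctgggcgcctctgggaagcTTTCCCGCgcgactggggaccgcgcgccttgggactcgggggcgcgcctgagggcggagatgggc
Cdkn2a downstream start, of p16Ink4a, chr4:89282193-89282442: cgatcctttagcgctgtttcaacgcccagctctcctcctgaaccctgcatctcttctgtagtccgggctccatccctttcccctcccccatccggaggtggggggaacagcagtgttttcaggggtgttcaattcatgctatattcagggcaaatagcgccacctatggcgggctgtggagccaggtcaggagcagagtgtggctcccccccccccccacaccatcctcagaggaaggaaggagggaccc
Cdkn2b start, of p15, chr4:89311040-89311282: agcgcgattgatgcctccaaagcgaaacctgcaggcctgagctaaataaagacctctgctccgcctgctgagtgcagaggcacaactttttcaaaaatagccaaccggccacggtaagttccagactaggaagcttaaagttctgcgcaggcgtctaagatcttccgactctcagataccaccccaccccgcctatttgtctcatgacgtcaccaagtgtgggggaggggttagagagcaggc

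The p19Arf start is known as a direct E2F target in mouse, and its window held 1 of the E2F sites. Any of them occurs in 1.55% of 32851 promoters cut to the same 216 bases. The other 2 windows held no match, which says only that these letters are not in them. None of the 3 windows held CACGTG.

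Cdkn2a had 1.12 normalized counts (14 reads) in MPP2 4OHT and 2.31 (32 reads) in MPP2 ethanol. ST-HSC colonies gave 0.144 (2 reads) under 4OHT and 0.0695 (1 read) in ethanol. Both ST-HSC libraries were near 0, and both MPP2 libraries stood above them beyond counting error. MPP2 had 7.81 times the Cdkn2a of ST-HSC under 4OHT (1.79 to 70.8) and 33.2 times in ethanol (5.55 to 1352). Within MPP2, 4OHT colonies had 0.486 times the ethanol level (0.240 to 0.938). When limma was run with no filter, the difference of Cdkn2a, MPP2 minus ST-HSC, was 1.82 on the log2 scale (1.09 to 2.54, adjusted p = 0.0492).

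Cdkn2b had 0.963 normalized counts (12 reads) in MPP2 4OHT and 3.03 (42 reads) in MPP2 ethanol. In ST-HSC colonies it had 0.144 (2 reads) under 4OHT and 0.209 (3 reads) in ethanol. The pattern was that of Cdkn2a, with MPP2 ethanol highest, MPP2 4OHT next and both ST-HSC libraries near 0. Within MPP2, 4OHT colonies had 0.318 times the ethanol level of Cdkn2b (0.152 to 0.615). MPP2 had 6.70 times the Cdkn2b of ST-HSC under 4OHT (1.49 to 61.6) and 14.5 times in ethanol (4.64 to 73.3). The limma difference, MPP2 minus ST-HSC, was 1.75 (1.02 to 2.48, adjusted p = 0.0276), and 7 of 8 other settings passed. Its mean passed the filter only through the MPP2 libraries. The shared 4OHT difference of Cdkn2b was -0.70 (adjusted p = 0.366).

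Within 500 kb of Cdkn2a, 9 of 40 annotated genes were in the table, these 2 members among them. Mtap, which recycles methionine and is the nearest gene of the table on the far side of Cdkn2a from Cdkn2b, had 14.5 normalized counts in MPP2 4OHT and 21.9 in MPP2 ethanol. In ST-HSC colonies Mtap had 35.7 under 4OHT and 29.1 in ethanol. Its values were lower in both MPP2 libraries, the direction opposite to that of Cdkn2a and Cdkn2b.

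Cdkn2c encodes p18, an INK4 inhibitor whose loss in mice is known to expand blood stem cells. It lies at chr4:109660876-109667189 on the minus strand. It had 19.2 normalized counts in MPP2 4OHT and 21.1 in MPP2 ethanol. ST-HSC values were 9.99 under 4OHT and 12.4 in ethanol. Both MPP2 libraries stood above both ST-HSC libraries, and within each cell type the 2 treatments did not differ beyond counting error. The level in MPP2 was 1.92 times that in ST-HSC under 4OHT and 1.71 times in ethanol. Cdkn2c was higher in MPP2 by limma, at 0.83 (0.49 to 1.17, adjusted p = 0.0265), and 8 of 9 other settings passed. Its 4OHT difference was -0.22 (adjusted p = 0.536).

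Cdkn2d encodes p19Ink4d, an INK4 inhibitor whose level is known to vary over the cell cycle. It lies at chr9:21288410-21291407 on the minus strand. It had 89.0 normalized counts in MPP2 4OHT and 83.8 in MPP2 ethanol. In ST-HSC colonies it had 52.4 under 4OHT and 60.0 in ethanol. Again both MPP2 libraries were above both ST-HSC libraries, by 1.70 times under 4OHT and 1.40 times in ethanol. Cdkn2d was higher in MPP2 by limma, at 0.62 (0.25 to 0.98, adjusted p = 0.0494), with 5 of 9 other settings past 0.05. The 4OHT over ethanol ratio was 1.06 in MPP2 (0.977 to 1.15) and 0.873 in ST-HSC (0.790 to 0.965).

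**Figure D3:**
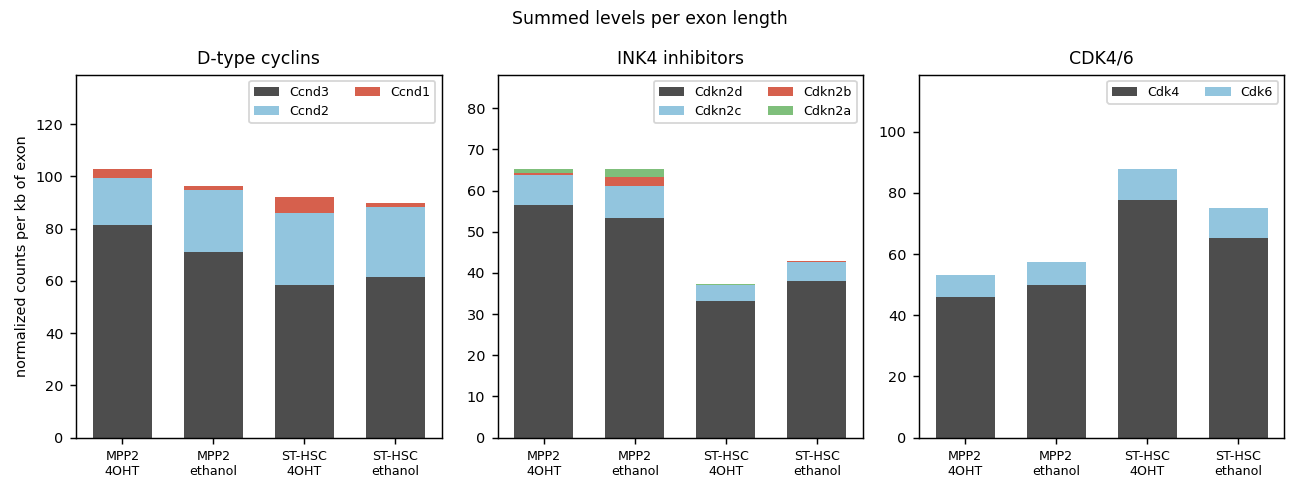
Normalized counts per kb of exon, stacked by gene, for D-type cyclins, INK4 inhibitors and CDK4 with CDK6 in the 4 libraries. Ccnd3, Cdkn2d and Cdk4 make up most of each bar, the INK4 bars are higher in MPP2, and the kinase bars are higher in ST-HSC.

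Per kb of exon, Cdkn2d made up 81.6% to 89.4% of the INK4 sum and Cdkn2c 9.99% to 12.1%. Cdkn2a and Cdkn2b were each at most 3.34%. The INK4 sum per kb was 65.3 in MPP2 4OHT and 65.2 in MPP2 ethanol, against 37.2 in ST-HSC 4OHT and 42.9 in ST-HSC ethanol. Set over the CDK4 and CDK6 sum, INK4 transcripts stood at 1.23 in MPP2 4OHT and 1.14 in MPP2 ethanol, against 0.424 in ST-HSC 4OHT and 0.571 in ST-HSC ethanol. With the longest transcript as length, the same ratios were 0.886, 0.821, 0.304 and 0.411, so which sum was larger in MPP2 depends on the length used, and the order of the libraries does not. These are ratios of RNA levels and not of proteins.

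Across the whole fit, 0 of the 8 tested members passed limma for 4OHT, against 0.0528% of tested genes, or 6 genes. At an unadjusted p under 0.05 Ccnd1 alone of the members passed, against 14.2% of tested genes. By edgeR on recovered reads the shared 4OHT effect was called for 492 of 11370 genes, of the 8 members for Ccnd1 alone. For MPP2 minus ST-HSC, 3 of the 8 passed, Cdkn2b, Cdkn2c and Cdkn2d, against 15.2% of tested genes, or 9.88% higher and 5.31% lower. Cdkn2b had passed the filter only through the MPP2 libraries, where it is high, so its direction was favoured by the filter and this count supports nothing about the members. By edgeR 6 of the 8 passed for cell type, these 3 with Ccnd2, Ccnd3 and Cdk4, against 3462 of 11370 tested genes. Cdkn2b is among them, so this count too supports nothing about the members. The median of the 8 by limma was 0.31, where the median of all tested genes was -0.02.

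**Figure D4:**
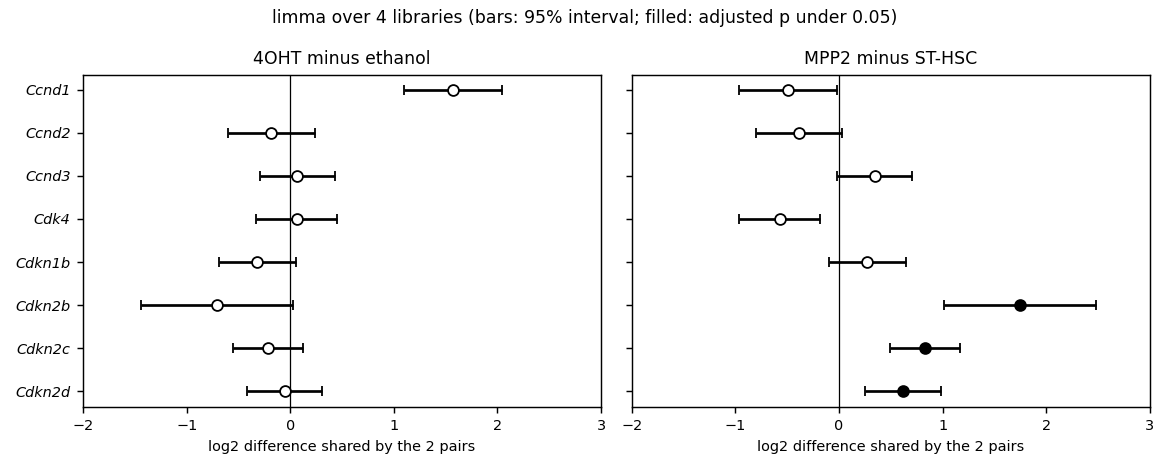
Log2 differences (horizontal axes) from the additive limma fit for the 8 tested members, with 95% intervals, for 4OHT minus ethanol (left) and MPP2 minus ST-HSC (right). Filled points mark an adjusted p under 0.05, which only Cdkn2b, Cdkn2c and Cdkn2d reach, for the cell type.

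Markers of other cells moved with the same libraries. The mast cell and basophil markers summed to 530 normalized counts in MPP2 4OHT and 1537 in MPP2 ethanol, against 82.4 in ST-HSC 4OHT and 149 in ST-HSC ethanol. MPP2 ethanol was highest and MPP2 4OHT next, as for Cdkn2b, whose ST-HSC libraries did not differ beyond counting error. All 9 tested of these markers were at least 2-fold higher in MPP2 in both treatments, and 7 of 9 were 2-fold lower with 4OHT in MPP2. Mcpt4 and Tpsb2 were at 0 in both ST-HSC libraries, and Cma1 also in ST-HSC 4OHT. The megakaryocyte markers summed to 451 and 502 in the MPP2 4OHT and ethanol libraries, against 27.5 and 22.8 in the ST-HSC 4OHT and ethanol libraries. All 8 of them were at least 2-fold higher in MPP2 in both treatments. The erythroid markers summed to 18.5 in MPP2 4OHT and 119 in MPP2 ethanol, against 1.72 in ST-HSC 4OHT and 2.78 in ST-HSC ethanol. Again MPP2 ethanol was highest and MPP2 4OHT next. Of the 7 tested, 4 were at least 2-fold higher in MPP2 under 4OHT and 7 in ethanol, and 6 were 2-fold lower with 4OHT in MPP2. Hba-a2 and Slc4a1 were at 0 in every library but MPP2 ethanol, so they entered the tested set only through that library. The eosinophil markers summed to 150 in MPP2 4OHT and 279 in MPP2 ethanol, against 40.7 in ST-HSC 4OHT and 39.4 in ST-HSC ethanol. Of the 5 tested, 3 were at least 2-fold higher in MPP2 under 4OHT and 4 in ethanol, and 2 were 2-fold lower with 4OHT in MPP2. Of all tested genes, 5.39% were called as higher in MPP2 under 4OHT, 6.27% in ethanol and 3.51% in both. With 4OHT in MPP2, 1.7% were called as lower. Some of these markers passed the filter only through MPP2 libraries, so their direction was favoured by the filter and nothing is read from these counts.

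Neutrophil markers also divided by cell type, as Cdkn2a to Cdkn2d did. They summed to 42827 normalized counts in MPP2 4OHT and 43883 in MPP2 ethanol, against 24329 in ST-HSC 4OHT and 32556 in ST-HSC ethanol. By limma the granule genes Ltf, Camp and Ngp and the calcium-binding S100a9 were higher in MPP2, with differences of 0.74 for S100a9 to 1.59 for Ltf (adjusted p = 0.0180 to 0.0439). The primary granule genes Elane, Mpo and Prtn3 were lower in MPP2, with differences of -0.82 for Elane to -1.01 for Mpo (adjusted p = 0.0251 to 0.0420). The part of any of these cells in the INK4 levels was not tested.

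Beside Ccnd1, the monocyte and macrophage markers summed to 615 normalized counts in MPP2 4OHT and 371 in MPP2 ethanol, against 492 in ST-HSC 4OHT and 294 in ST-HSC ethanol. Of the 7 tested, 4 were at least 2-fold higher with 4OHT in MPP2 and 2 in ST-HSC, against 1.32% and 2.1% of all tested genes. All 7 lay above 0 in ST-HSC and 6 in MPP2, where Cd14 had 94.4 under 4OHT against 98.3 in ethanol. C1qb, which was not tested, had at most 4 reads in a library. Csf1r, the CSF1 receptor, had 128 in MPP2 4OHT and 54.2 in MPP2 ethanol, against 129.6 in ST-HSC 4OHT and 66.97 in ST-HSC ethanol. The stem and multipotent progenitor markers summed to 176 in MPP2 4OHT and 166 in MPP2 ethanol. In ST-HSC colonies they summed to 203 under 4OHT and 132 in ethanol. Of the 8 tested, 4 were at least 2-fold higher with 4OHT in ST-HSC and 0 in MPP2. Their sum was highest in ST-HSC 4OHT, as Ccnd1 was, and the monocyte and macrophage sum in MPP2 4OHT. The part of any of these cells in the level of Ccnd1 was not tested. The list of 10 proliferation markers had a median 4OHT difference of -0.08 in each kind of colony, and none was 2-fold apart. Mki67 had the largest 4OHT difference of the list in ST-HSC, with 558 in MPP2 4OHT and 629 in MPP2 ethanol, against 317 in ST-HSC 4OHT and 593 in ST-HSC ethanol. Ccnd1 and Cdk4 were highest in ST-HSC 4OHT. In ST-HSC colonies 8 of the 10 proliferation markers lay below 0 with 4OHT, against 6 in MPP2. The 2 above 0 in ST-HSC were Ccnb1 and Cdk1, each by only 0.06 on the log2 scale. These 2 genes, and the neutrophil genes above, were named after their values were seen.

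The pathway around the members was followed in 11 lists with 102 genes, of which 97 were in the table and 94 were tested. With 4OHT, none of the 94 was 2-fold apart in MPP2, and Cdkn1a alone was in ST-HSC, against 3.02% and 2.65% of all tested genes. By limma 0 of the 94 passed for 4OHT, against 0.0528% of tested genes. An unadjusted p under 0.05 was found for 14, against 14.2% of tested genes, and the median difference of the 94 was -0.05. By edgeR 4 passed, against 492 of 11370 genes: Cdkn1a, Rb1, Suz12 and the mitotic checkpoint kinase Bub1. For MPP2 minus ST-HSC by limma, 3 passed as higher and 3 as lower, against 9.88% and 5.31% of tested genes. These counts are near or below the shares of all genes, so nothing is read from them about the lists. The 3 higher were the retinoblastoma gene Rb1, the cytokine feedback inhibitor Socs1 and Kcnq1ot1, the noncoding RNA of the imprinted cluster around Cdkn1c. Their limma differences were 0.60 for Rb1 (adjusted p = 0.0458), 0.94 for Socs1 (adjusted p = 0.0212) and 0.58 for Kcnq1ot1 (adjusted p = 0.0456). The 3 that passed as lower were Myc, Ccne1, which encodes cyclin E1, and Gins2, a part of the replicative helicase. Ccne1 had a difference of -0.58 (adjusted p = 0.0468) and Gins2 of -0.71 (adjusted p = 0.0330), and these 3 were named after their values were seen.

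Downstream of the D-type cyclins, the pocket proteins and E2F genes gave no call for 4OHT by limma. Rb1 had 61.5 normalized counts in MPP2 4OHT and 92.9 in MPP2 ethanol, against 42.8 in ST-HSC 4OHT and 58.0 in ST-HSC ethanol. The shared 4OHT difference of Rb1 was -0.51 (adjusted p = 0.206). Among the 20 E2F target genes of the G1/S step, 11 lay below 0 for 4OHT in MPP2 and 16 in ST-HSC, with medians of -0.04 and -0.12, and none was 2-fold apart. Rrm2, the ribonucleotide reductase subunit with the highest level in that list, had 453 in MPP2 4OHT and 484 in MPP2 ethanol, against 478 in ST-HSC 4OHT and 557 in ST-HSC ethanol. For MPP2 minus ST-HSC, 19 of the 20 lay below 0 in the limma fit, and Gins2 alone passed. The median of the 20 was -0.28, where the median of all tested genes was -0.02.

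**Figure D5:**
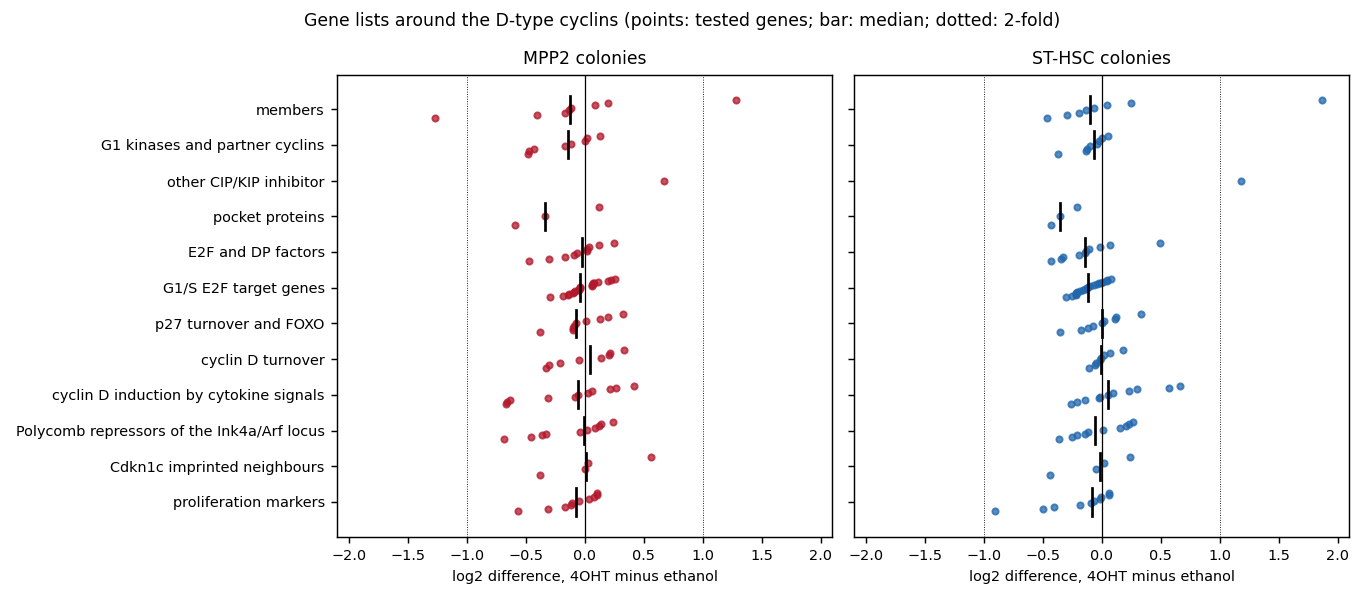
Log2 differences, 4OHT minus ethanol, of tested genes in each list (points), with list medians as bars, in MPP2 (left) and ST-HSC colonies (right). Ccnd1 and Cdkn2b are the member points outside 2-fold in MPP2, and Ccnd1 and Cdkn1a are the points outside 2-fold in ST-HSC.

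Regulators of the members stayed within 2-fold under 4OHT. Suz12 and Ezh2, Polycomb genes known to repress Cdkn2a and Cdkn2b, gave shared differences of -0.53 (adjusted p = 0.232) and -0.34 (adjusted p = 0.372). By limma none of the 10 tested genes of that list passed for 4OHT or for cell type, and 1 had an unadjusted p under 0.05 in each. By edgeR Suz12 alone passed, for 4OHT. Among genes that destroy p27 or act on it through FOXO factors, Cul1 gave -0.28 (adjusted p = 0.442) and Akt1 0.21 (adjusted p = 0.556). Among genes for cyclin D turnover, Cul4b gave -0.21 (adjusted p = 0.561). Of the cytokine signalling genes, Jak2 had 91.8 normalized counts in MPP2 4OHT and 145 in MPP2 ethanol, against 83.9 in ST-HSC 4OHT and 97.2 in ST-HSC ethanol. Its shared 4OHT difference was -0.43 (adjusted p = 0.335).

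For the 4 members that spanned at least 2-fold over the libraries, the genes with the most similar profiles were found among 8158 candidates, by distance between centred log2 values over the 4 libraries. Nearest to Ccnd1 were Parp12 at a distance of 0.225, Ms4a6d at 0.232 and Saa3 at 0.517. Parp12 had 18.4 normalized counts in MPP2 4OHT and 8.44 in MPP2 ethanol, against 31.05 in ST-HSC 4OHT and 7.86 in ST-HSC ethanol. Nearest to Cdkn2a were Cxcr2, Plxdc2 and Cyp4f18, at distances of 0.160 to 0.284. The values were taken after adding 0.5, which shrinks the ratios of Cdkn2a and Cdkn2b, with at most 3 reads in an ST-HSC library. In ethanol, MPP2 had 33.2 times the Cdkn2a of ST-HSC, where Cxcr2 had 37.9 in MPP2 against 8.48 in ST-HSC. Likeness to Cdkn2a and Cdkn2b thus rests in part on the constant. Nearest to Cdkn2b were Aqp9, Ikzf2 and Akr1c13, at 0.202 to 0.305. Nearest to Cdkn2c were Ston2, Dfna5 and Dennd1c, at 0.0480 to 0.0650.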

How the data were processed

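Per the labels' protocols, RNA from colony-forming cells was depleted of rRNA and made into strand-specific libraries from 200 ng. The mm10 build, RSEM, Bowtie2, edgeR and Trimmomatic 0.36 are listed, per the submitters' processing notes. Their role and order, and the strand setting of the counting, are not given in what was used here. The authors deposited 1 table of normalized counts per gene, a signal scaled by library. All 57292 values (100%) lay within 1e-06 reads of a whole multiple of the worth of 1 read, so whole reads were recovered. The values equal CPM after TMM scaling. The edgeR 4.0.16 count test on these reads called 492 genes for 4OHT and 3462 for cell type.

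The members and the gene lists were chosen with earlier results of these data known. Log2 values were taken after adding 0.5, which understates the change of low genes. limma 3.58.1 (no trend, in R 4.3.3) was fitted over all 11370 genes with a mean of at least 1, with treatment and cell type as terms and adjusted p-values by Benjamini-Hochberg. The 2 libraries of a treatment come from different cell types, so p-values do not measure the spread between cultures. Pairs of libraries are described without a test. Of each list, the text names up to 3 genes with the largest mean 4OHT difference and the most abundant 1, and cell type calls. Gene positions and lengths are from GENCODE M21 on GRCm38, the assembly of mm10, which matched 13739 table genes. Genes that overlap Ccnd1, Ccnd2, Ccnd3, Cdk4 or Cdkn1c on the other strand could share reads with them. Promoter sequences are from RefSeq, cut to bases before the first start in either annotation. The limma and edgeR steps were tested on simulated data, and sequences and intervals were handled in Python 3.11.15 with scipy 1.17.1. Alternatives changed the added constant, filter, scaling, tool, GC content and gene length.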

Additional observations from a re-analysis of the deposited data

Results flagged for a closer look

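Ccnd3 and Cdk4 moved in opposite directions with 4OHT in the 2 kinds of colony, each with a counting interval off 1 in the values as deposited. The 4OHT over ethanol ratio of Ccnd3 was 1.15 in MPP2 and 0.953 in ST-HSC colonies. That of Cdk4 was 0.918 in MPP2 and 1.19 in ST-HSC colonies. With the GC trend removed, the log2 4OHT difference of Ccnd3 in MPP2 was 0.04 in place of 0.20, and it was 0.13 in unscaled CPM. That of Cdk4 in MPP2 was -0.25 in place of -0.12 with the GC trend removed. The difference between the cell types was not tested, since 1 library a group leaves no residual degrees of freedom for it.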

How the results depend on the processing

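No paired analysis was possible because the labels carry no replicate numbers, other than the additive fit itself, in which each 4OHT library is set against the ethanol library of its cell type. With 1 library a group there is no replicate to leave out. The most fragile summary was the count for 4OHT by limma, 6 genes. It was 0 with a constant of 0.1, no filter, DESeq2 size factors, unscaled CPM or a GC trend removed, 92 with a constant of 1, 230 with a mean of at least 5, 598 with a limma trend and 492 by edgeR. The count for cell type, 1727, was 852 with a constant of 0.1, 559 with no filter, 2719 with a mean of at least 5, 3761 with a trend and 3462 by edgeR. With a mean of at least 5, 2-fold counts were 162 for 4OHT in MPP2 and 155 in ST-HSC, 483 and 461 between cell types under 4OHT and in ethanol, and 154 for the difference of differences, which was 631 with no filter. Per-length ratios with the longest transcript were 6.92, 4.54, 3.24 and 3.51 for Ccnd3 over Ccnd2 and 0.886, 0.821, 0.304 and 0.411 for INK4 over CDK4 and CDK6, in MPP2 4OHT, MPP2 ethanol, ST-HSC 4OHT and ST-HSC ethanol, because the exon union of some genes is much longer than any 1 transcript. With the GC trend removed, the shared 4OHT differences of Ccnd3 and Cdk4 turned to -0.0298 and -0.0107. In MPP2 alone Cdkn1b turned to 0.01 and Cdkn2d to -0.11, none of them called. Calls at 2-fold higher and lower between cell types under 4OHT were 613 and 194, against 521 and 268 in unscaled CPM, which moved the median of all genes to -0.10. Cdkn2c and Cdkn2b lost their cell type call with no filter (adjusted p = 0.0575 and 0.0594), and Cdkn2d in 4 settings (0.0555 to 0.0882). The cause was not tested. Depth limits Cdkn1c, Cdkn2a and Cdkn2b, which had at most 42 reads in a library.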
